A study of Mus musculus with 10 samples.

Results

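Egr1, Egr3, Fos and Junb are immediate-early genes, and each had 1 locus among the 1577 loci of a deposited table of Elk1 and Gli2 binding in mouse cells. The 4 loci are the rows of that table at the start positions given for these genes, and they were chosen with earlier results of the same data in view, so their levels are described here and not tested. Chromatin was immunoprecipitated with an antibody to Elk1 (Epitomics) or to Gli2 (Abcam) and sequenced at 5 stages. Cells named tdMEFs were grown in a medium with fetal bovine serum (MEF is the usual short form for mouse embryonic fibroblast) and were sampled at day 0, and at days 4 and 8 of reprogramming in M9 medium. Per the labels' protocols M9 is a neural medium with N2 and B27, basic FGF, the Hedgehog agonist Hh-Ag1.5, CHIR99021, LDN193189, A83-01, retinoic acid, SMER28, RG108 and Parnate, used at lower oxygen than the serum medium. The other stages were cells named ciNSLCs and cells named pri-NPC, with no strain, age or number of animals given in the sources used here. Each antibody had 1 library at each stage, which makes 10, so medium, oxygen, time and library cannot be told apart and no difference below has a replicate check. Bound chromatin of 2 factors gives no readout of cell type markers, so the labelled cell types were not checked.

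Immediate-early genes are transcribed within minutes of a growth factor or serum signal and need no new protein synthesis for it. Elk1 is a ternary complex factor of the ETS family. It binds DNA together with serum response factor at serum response elements and activates transcription once MAP kinases of the ERK pathway have phosphorylated it. Egr1 and Egr3 encode zinc finger transcription factors, and Fos and Junb encode partners in the AP-1 dimer. Gli2 is the main transcriptional activator at the end of the Hedgehog pathway.

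The Fos and Junb loci lay downstream of their genes and not at the promoters. In mm10 coordinates the Fos locus spanned chr12:85485865-85486385, a width of 520 bp, and lay 8591 bp beyond the 3′ end of Fos (chr12:85473890-85477274, plus strand). Its centre was 12235 bp downstream of the RefSeq start site, and the next protein-coding gene, Tmed10, was 111148 bp away. The Junb locus spanned chr8:84976465-84976845, a width of 380 bp, and lay 64 bp beyond the 3′ end of Junb (chr8:84976909-84978748, minus strand). Its centre was 2093 bp downstream of the start site, and the next coding gene, Prdx2, was 1654 bp away. A serum-responsive region downstream of mouse Junb has been described, and whether this locus is that region was not tested.

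RefSeq promoter windows of GRCm38.p6, the same assembly as mm10, were held for these 2 of the 4 genes, from 250 bases before to 50 after the start site. They are shown because both genes had high Elk1 signal in the same libraries while neither window overlapped a listed locus. Capitals mark the ETS core GGAA on either strand.
Fos: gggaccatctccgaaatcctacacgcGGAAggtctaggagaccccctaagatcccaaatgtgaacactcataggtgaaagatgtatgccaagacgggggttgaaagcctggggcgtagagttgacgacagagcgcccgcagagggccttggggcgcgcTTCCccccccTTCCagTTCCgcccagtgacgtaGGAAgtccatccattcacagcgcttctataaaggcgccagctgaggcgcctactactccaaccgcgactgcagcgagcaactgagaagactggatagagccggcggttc
Junb: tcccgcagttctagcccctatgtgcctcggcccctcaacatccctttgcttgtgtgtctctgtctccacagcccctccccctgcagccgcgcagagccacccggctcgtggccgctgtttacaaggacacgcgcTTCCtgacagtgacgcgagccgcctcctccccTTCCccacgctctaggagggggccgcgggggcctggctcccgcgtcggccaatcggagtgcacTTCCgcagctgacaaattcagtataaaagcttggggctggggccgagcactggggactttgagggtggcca
The Fos window (chr12:85473640-85473939, plus strand) held 5 such cores and the Junb window (chr8:84978699-84978998, minus strand) held 3. The median of all 32851 windows was 3, with as many as Fos or more in 28.6% of them and as many as Junb or more in 66.3%. The longer ETS sequence CCGGAA, which contains the core, was in neither window and in 14.9% of all windows. The sequence TGACG, the core of a cyclic AMP response element, was present at 2 places in Fos and 1 in Junb, and in 20.8% of all windows. A CArG box, the letters bound by serum response factor, was in neither window and in 1.63% of all windows. The well-known serum response element of Fos lies farther upstream than its window reaches. All were searched on both strands, and a match or its lack describes these letters only.

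The Egr1 and Egr3 loci lay beyond the lower coordinate of their genes. The Egr1 locus spanned positions 34860505 to 34861165 of chromosome 18, a width of 660 bp, and ended 42 bp before the gene (34861207 to 34864956). The Egr3 locus spanned positions 70074785 to 70075065 of chromosome 14, a width of 280 bp, and ended 2252 bp before the gene (70077317 to 70082613). No promoter window was held for Egr1 or Egr3, and their strand is not given in the sources used here. None of the 4 loci overlapped a RefSeq gene of any class, so none is exonic, intronic or in a UTR. Each was the only listed locus within 50 kb of its gene, and the next listed locus was 572920 bp away for Egr1 and farther for the others. Against a median width of 260 bp over all loci, Egr1 had rank 86 of 1577 by width, Fos 206, Junb 312 and Egr3 540.

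**Figure D1:**
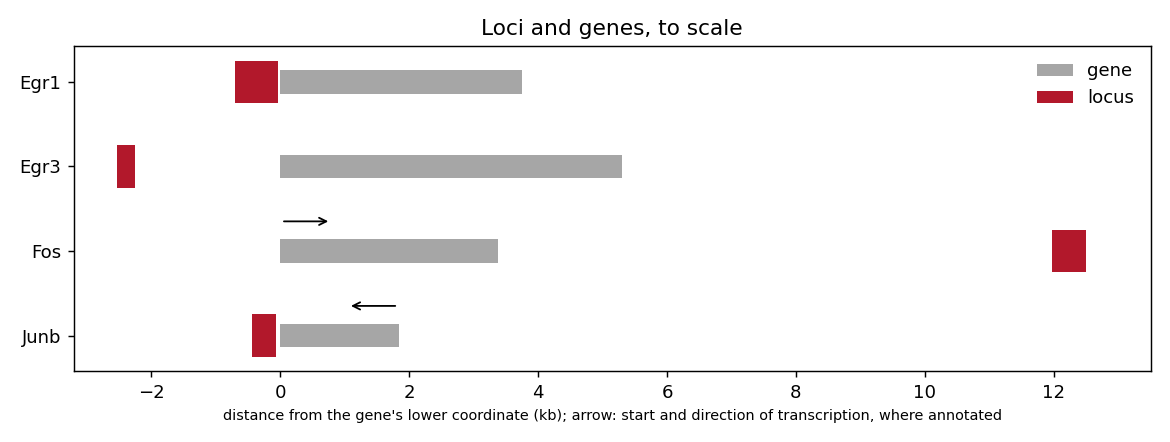
Position of each locus (red) and its gene (grey) in kb from the lower coordinate of the gene, to scale, with an arrow at the start site of Fos and Junb pointing in the direction of transcription. The Fos and Junb loci lie past the 3′ ends of the genes, by 8591 and 64 bp.

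The signal in the table is the authors' own, never negative, on a scale that is not stated. Low signals fell on steps, and 1 step was taken as 1 counted unit, worth the least (2.82) in the Elk1 library of ciNSLCs and the most (14.5) in that of pri-NPC. These take 35 and 7 units to reach 100. Intervals are exact at 95%, were computed from the units, and leave out every error but that of counting. A locus was called higher or lower where it differed by at least 2-fold and the interval of the ratio left out 1. The smallest maximum of any listed locus was 100.1, so a library stands high by construction where it is the only one at 100. The Elk1 libraries of pri-NPC and day 4 had 677 and 190 such loci, the Gli2 library of day 0 had 357, and the remaining Elk1 libraries had 4 or fewer.

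Elk1 signal as deposited was lowest at day 0 at all 4 loci. Beside Egr1 the signals of days 0, 4 and 8 were 24, 164.7 and 137.1, and those of ciNSLCs and pri-NPC were 80.8 and 148. The Egr3 locus had 12.2, 118, 60.9, 18.7 and 27.9 in the same order of stages. Days 4 and 8 were the high stages at Egr3, while at Egr1 pri-NPC stood between them. The Fos locus had 37.8, 222.8, 167.6, 135.5 and 249.6, and it was the only member above 100 in ciNSLCs. Junb had 13.7, 203.5, 100.7, 97.7 and 129.4. At Egr1 and Junb the order from high to low was day 4, pri-NPC, day 8, ciNSLCs and day 0. Fos had pri-NPC ahead of day 4, and Egr3 had day 8 ahead of pri-NPC, with the rest of the order as at Egr1. No stage in these orders was called different from its neighbour, except that ciNSLCs stood above day 0 at Egr1, Fos and Junb. The place of pri-NPC in these orders depends on scale, and so does the order of days 4 and 8. With libraries scaled to the same median pri-NPC stood below days 4 and 8 at all 4 loci. At Egr3 it also stood below day 0, with a log2 difference from day 0 of -1.08 in place of 1.13. Day 8 then stood above day 4 at Egr1 and Fos, with log2 differences of 0.27 and 0.13. It stayed below day 4 at Egr3 (-0.41) and Junb (-0.47). As deposited, the ratio of pri-NPC to day 4 was 0.899 at Egr1 (interval 0.36 to 2.04), 1.12 at Fos (0.555 to 2.16), 0.636 at Junb (0.259 to 1.46) and 0.236 at Egr3 (0.0271 to 1.12).

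**Figure D2:**
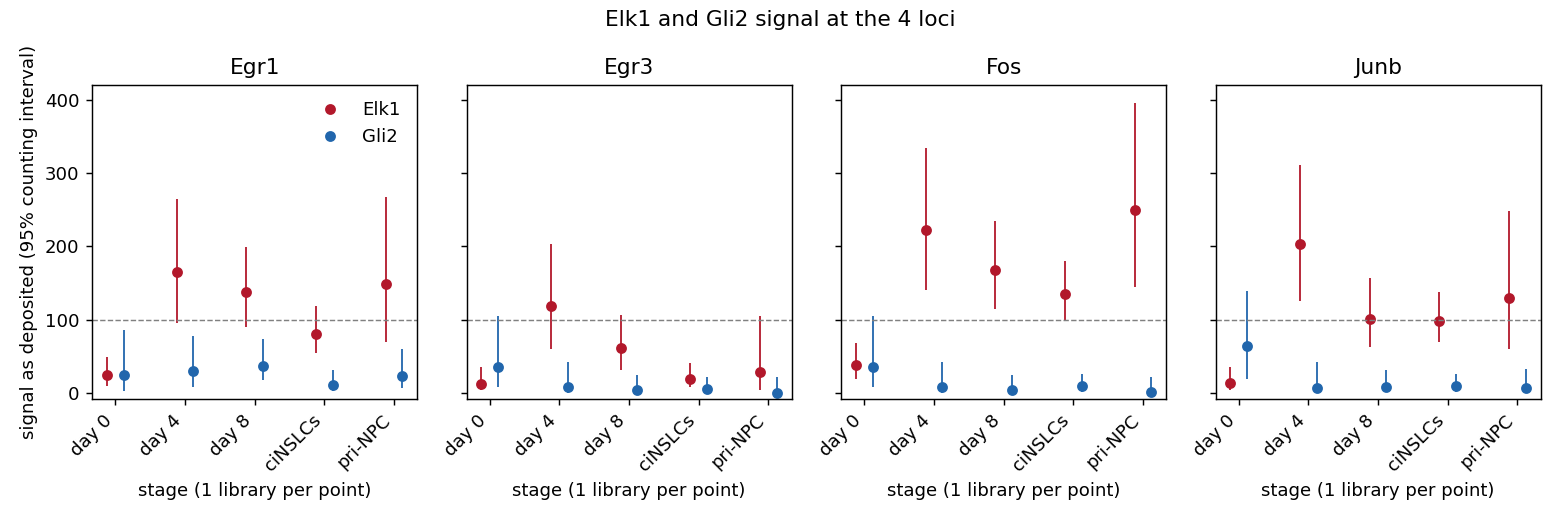
Deposited signal (linear axis) of Elk1 (red) and Gli2 (blue) at the 4 loci in the 5 stages, 1 library per point, with the 95% counting interval of each signal as a vertical line and a dashed line at 100. At Fos the Elk1 points of all stages but day 0 lie between 135.5 and 249.6 and every Gli2 point is at or below 35.8.

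At day 4 all 4 loci were called higher with Elk1 than at day 0, against 17.6% of all loci. The ratio was largest at Junb, 14.9 (interval 5 to 59.3), on 21 units against 4. It was 9.67 at Egr3 (2.56 to 36), 6.86 at Egr1 (2.7 to 19.5) and 5.89 at Fos (2.76 to 13.4). The median log2 difference of the 4 loci was 2.95, beside 0.65 over all loci. Egr3 reached 100 in the Elk1 day 4 library alone and so was listed for that signal, which its interval ignores. Over loci that reached 100 in a library outside this pair, 3 of 3 members were called, against 7.59% of 1384 loci. Among these are the 677 loci listed through Elk1 pri-NPC alone and the 357 listed through Gli2 day 0 alone. The same holds below wherever these 2 libraries are outside the pair. Scaling each library to its 90th percentile of signal left 1 of 4 called, Junb, and scaling to the median left all 4. That percentile of the day 4 library, 110, includes the 190 loci listed through it alone.

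At day 8 all 4 loci were again called higher than at day 0, against 4.06% of all loci. The ratio was 7.35 at Junb (interval 2.48 to 29.7), 5.71 at Egr1 (2.42 to 15.5), 4.99 at Egr3 (1.34 to 18.9) and 4.43 at Fos (2.19 to 9.73). The median log2 difference was 2.35, beside 0 over all loci, and the median signals of these 2 libraries were 10.2 and 10.3. Among loci at 100 in a library outside the pair the shares called were 4 of 4 members and 3.95% of 1571 loci. From day 4 to day 8 only Junb was called lower, at a ratio of 0.495 (0.257 to 0.967), against 16.4% of all loci. The log2 difference of Junb was -1.01 and turned to 0.61 when libraries were scaled to the same 90th percentile. That scaling turned the other members positive as well, to 1.36 at Egr1, 0.67 at Egr3 and 1.22 at Fos. Calls higher at day 8 were not counted under it. As deposited, Egr1, Egr3 and Fos had ratios of 0.832, 0.516 and 0.752, with intervals that held 1. Over loci that reached 100 outside this pair, 1 of 3 members was called, against 6.44%.

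In ciNSLCs 3 of the 4 loci were called higher with Elk1 than at day 0, against 2.92% of all loci. Junb had a ratio of 7.13 (interval 2.57 to 27.8) on 35 units against 4, Fos 3.58 (1.84 to 7.66) on 48 against 11, and Egr1 3.37 (1.46 to 9.21) on 29 against 7. Egr3 had 1.53 (0.366 to 6.7). Over loci at 100 outside this pair the share called was 2.86%. In pri-NPC 3 of the 4 were called higher than at day 0, against 46.8% of all loci and 7.24% of the 898 loci that, like the 4 members, reached 100 in a library outside the pair. The ratios were 9.45 at Junb (2.65 to 42.2), 6.6 at Fos (2.88 to 15.4), 6.17 at Egr1 (2.07 to 18.7) and 2.29 at Egr3 (0.191 to 14.7). None of the 4 was called once the pri-NPC and day 0 libraries were scaled to the same median or 90th percentile. The pri-NPC median of 47.6 is taken over all loci, 677 of which reached 100 in that library and no other.

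**Figure D3:**
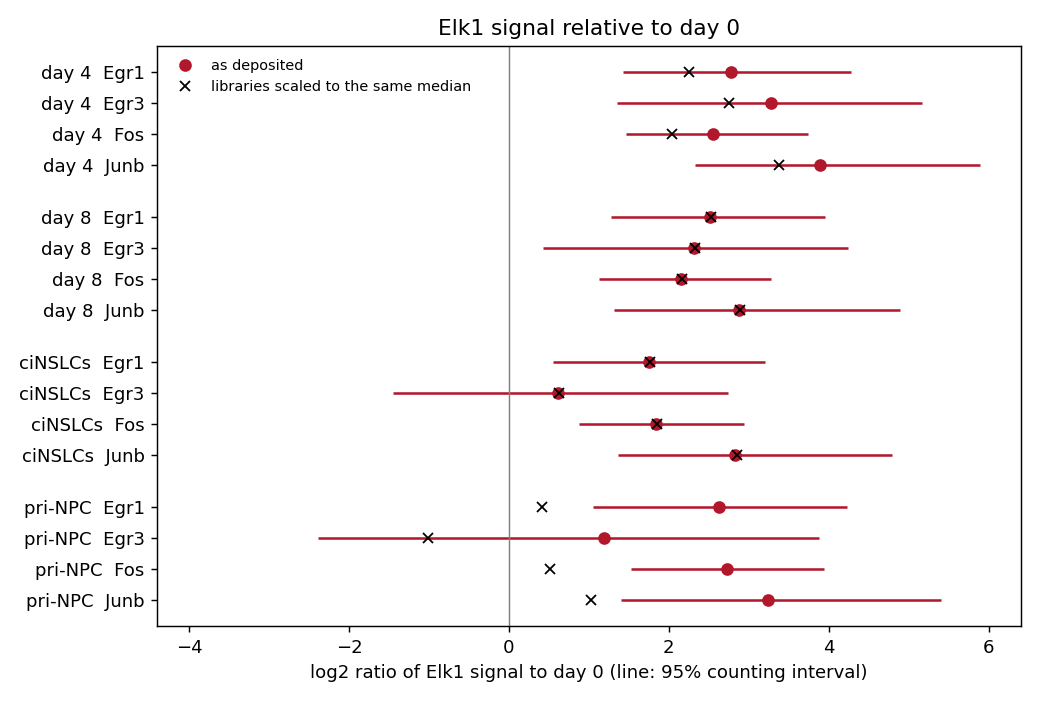
Log2 ratio of Elk1 signal to day 0 for each stage and locus (red point, with the 95% counting interval as a line), and the same ratio with all libraries brought to 1 median signal (black cross). At days 4 and 8 the intervals of all 4 loci lie above 0, and the crosses of pri-NPC lie apart from the points.

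Set against each other, ciNSLCs and pri-NPC had Elk1 ratios of 0.546 at Egr1 (interval 0.267 to 1.3), 0.67 at Egr3 (0.13 to 6.72), 0.543 at Fos (0.31 to 1.02) and 0.755 at Junb (0.356 to 1.79). None of the 4 was called lower in ciNSLCs, against 47.4% of all loci and 8.23% of the 899 loci at 100 outside the pair, where all 4 members belong. The log2 differences ran from -0.88 at Fos to -0.40 at Junb. They turned positive at all 4 loci after scaling to the same median or 90th percentile. At the same median they were 1.335 at Egr1, 1.562 at Egr3, 1.332 at Fos and 1.797 at Junb. Under these scalings only calls lower in ciNSLCs were counted, so calls higher in ciNSLCs were not looked for.

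Egr3 stood apart from the other members between day 8 and ciNSLCs, a comparison added after its values were seen. Its ciNSLC to day 8 ratio was 0.307 (interval 0.108 to 0.893), on 7 units against 12, while that of Egr1 was 0.589 (0.341 to 1.05), of Fos 0.808 (0.508 to 1.3) and of Junb 0.97 (0.546 to 1.78). Egr3 was thus the 1 member called lower, against 6.59% of all loci. The call was lost when units were counted before background subtraction, 9 against 12, and after scaling to the 90th percentile. Shares within a library do not depend on its scale. Of the Elk1 units at the 4 loci Egr3 held 15.4% at day 0 (exact Clopper-Pearson interval 4.36 to 34.9), 16.4% at day 4 (8.79 to 27) and 13% at day 8 (6.93 to 21.7). Its share was 5.88% among ciNSLC units (2.4 to 11.7) and 5.26% among pri-NPC units (0.644 to 17.7). The intervals overlap, and the difference between Egr3 and the other members was not tested. Fos held the largest share in every stage, 31.5% at day 4 to 44.7% in pri-NPC.

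The rank of a locus among all loci of its library does not depend on scale either. With Elk1, Junb moved from rank 544 of 1577 at day 0 to 47 and 53 at days 4 and 8, and had rank 21 among ciNSLC and 71 among pri-NPC signals. In the same order of stages Fos had ranks 124, 43, 26, 11 and 32, and Egr1 had 217, 56, 34, 31 and 55. These 3 loci therefore ranked among the top 71 in every Elk1 library but that of day 0, and had 95.5% or more of all loci below them. Egr3 had ranks 690, 111 and 93 at days 0, 4 and 8, then 320 for ciNSLCs and 903 for pri-NPC, where 42.1% of loci were lower. Ranks depend on which loci were listed, and the 677 loci listed through Elk1 pri-NPC alone crowd the upper ranks of that library.

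**Figure D4:**
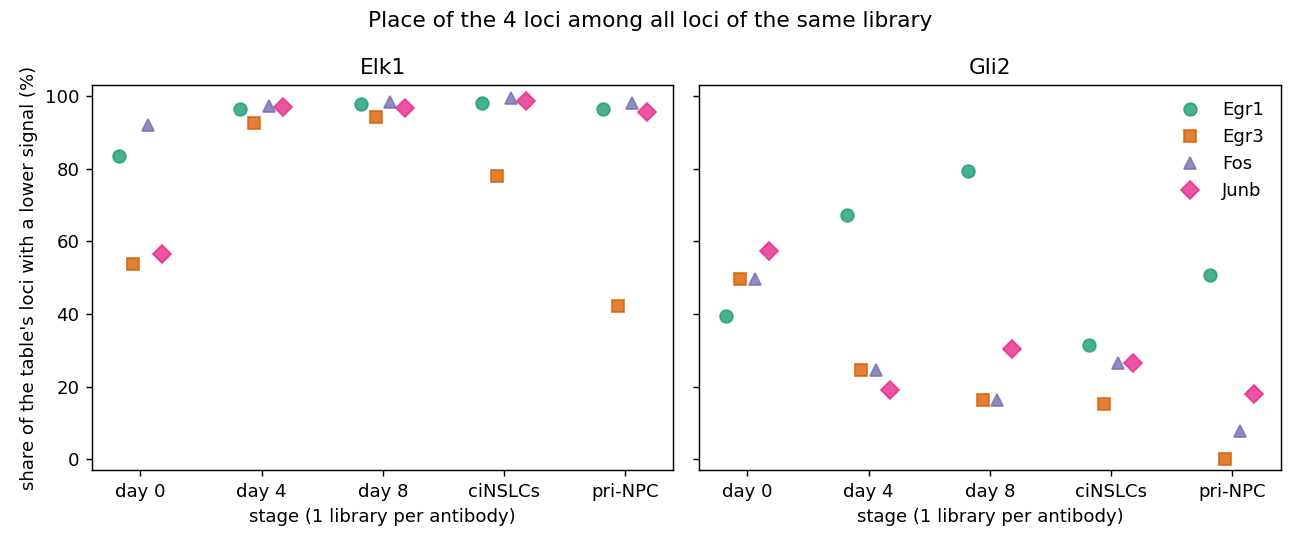
Share of the 1577 loci with a lower signal than each member in the same library (y axis, percent), for Elk1 and Gli2 in the 5 stages, with 1 point per member and library. With Elk1, Egr1, Fos and Junb lie at 95.5% or more in every stage but day 0, and Egr3 lies at 42.1% in pri-NPC.

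Gli2 signal at the 4 loci was low in most libraries and rested on few units. Beside Egr1 it was 23.9, 30.1 and 36.8 at days 0, 4 and 8, with 10.6 for ciNSLCs and 23.5 for pri-NPC, on 2 to 9 units. Egr3 had 35.8, 7.5, 4.3, 5.3 and 0, and Fos had 35.8, 7.5, 4.3, 9 and 1.3, in both cases on 3 units or fewer. Junb had 63.3, 7.1, 8.5, 9 and 7.2, the highest of the 4 at day 0, on 5 units. Egr3, Fos and Junb thus had their highest Gli2 signal at day 0, and Egr1 had its highest at day 8, where 79.4% of loci were lower. A floor of 3 units per library allows Gli2 signals of up to 35.8, 22.6 and 12.8 at days 0, 4 and 8, 9 for ciNSLCs and 17.6 for pri-NPC, so for Egr3 and Fos, at or under the floor in every stage, no fold between stages is given.

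With Gli2 0 of 4 loci were called lower than at day 0 at day 4, against 32.3% of all loci. Junb was the 1 locus called lower at day 8, against 38.3%, in ciNSLCs, against 32%, and in pri-NPC, against 29.2%. Its signal was above the floor at day 0 and rested on 2, 3 and 1 units in these libraries. Its ratio to day 0 was 0.134 at day 8 (interval 0.0136 to 0.874), 0.142 in ciNSLCs (0.0234 to 0.774) and 0.114 in pri-NPC (0.00208 to 0.878). Over loci that reached 100 outside each pair, as all 4 members did, the shares called lower were 17.1% at day 4, 21.2% at day 8, 12.6% for ciNSLCs and 10.4% for pri-NPC. With 1 member in 4 nothing is read from these shares, and no call was left after the libraries were scaled to the same median. Egr1 had Gli2 ratios to day 0 of 1.26 at day 4 (0.18 to 13.9) and 1.54 at day 8 (0.333 to 15.3). No difference was detectable there on so few units.

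Elk1 and Gli2 were then set side by side at the same stage. All 4 loci were listed through Elk1 libraries and never reached 100 with Gli2, so a higher Elk1 signal in those libraries follows in part from the listing. The antibodies differ, and a ratio between them compares 2 libraries. At day 0 none of the 4 was called higher with Elk1, against 0.19% of all loci, and the ratio of Elk1 to Gli2 was 1 at Egr1 (interval 0.192 to 9.93), 0.341 at Egr3 (0.0649 to 2.62), 1.06 at Fos (0.279 to 5.89) and 0.216 at Junb (0.0456 to 1.07). Scaled to the same median, the log2 difference at day 0 was 1.8 at Egr1, 0.32 at Egr3 (-1.48 as deposited), 1.87 at Fos and -0.33 at Junb, so a ratio near 1 there depends on the scale of the deposited signal. At day 4 all 4 were called higher with Elk1, against 12% of all loci, and at day 8 all 4 again, against 3.17%. Over loci at 100 outside the pair the shares were 3 of 3 members and 2.83% at day 4, and 4 of 4 members and 3.18% at day 8. At day 4 the ratio was 5.47 at Egr1 (1.79 to 22.4), 15.7 at Egr3 (2.29 to 661), 29.7 at Fos (4.81 to 1.22e+03) and 28.7 at Junb (4.35 to 1.12e+03). Gli2 rested on 1 unit at each of Egr3, Fos and Junb, and their intervals are wide. At day 8 it was 3.73 at Egr1 (1.63 to 8.62), 14.2 at Egr3 (2.11 to 610), 11.8 at Junb (2.89 to 105) and 39 at Fos (6.57 to 1.6e+03), where Gli2 rested on 1 or 2 units at the last 3 loci.

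In ciNSLCs 3 of the 4 were called higher with Elk1 than with Gli2, against 2.09% of all loci, and in pri-NPC 3 of the 4, against 36.3%. Over loci at 100 outside the pair, where all 4 members belong, the shares were 2.1% and 3.57%. Egr3 was the exception in both as deposited. Scaling to the same median left 2 of 4 called in pri-NPC, where the Egr1 call was lost. The log2 difference of Egr1 there went from 2.6 to 1.34. Scaling to the 90th percentile called all 4 in ciNSLCs. In ciNSLCs the ratio was 15.1 at Fos (interval 4.85 to 75.6), 10.9 at Junb (3.46 to 55.8), 7.62 at Egr1 (2.4 to 26.7) and 3.53 at Egr3 (0.627 to 32.5). At Fos the pri-NPC signal was 249.6 with Elk1 and 1.3, under 1 unit, with Gli2. Against a floor of 3 units in that Gli2 library the Elk1 signal was 14.2-fold higher. The counting interval of the ratio at Fos began at 10.2, so 14.2 is not a lower limit. The pri-NPC ratio was 6.3 at Egr1 (1.78 to 27) and 18 at Junb (3.08 to 976), the latter on 9 units against 1. Gli2 at Egr3 was listed at 0 in pri-NPC, where Elk1 rested on 2 units.

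Egr1, Fos and Junb were the 3 loci of the table with Elk1 at 100 or more in 3 or more stages and Gli2 below 100 throughout. Fos did so in 4 stages, Egr1 and Junb in 3 (days 4 and 8 and pri-NPC), and Egr3 in 1. Of the 980 loci that reached 100 with Elk1, 47 did so in 3 or more stages, and 44 of these also reached it with Gli2. A further 874 reached it with Elk1 in 1 stage and never with Gli2, and 7 in 2 stages. The limit was picked after the values were seen. At a limit of 80 there were 6 such loci, at 120 there were 2 (Egr1 and Fos) and at 150 there was 1 (Fos). With libraries scaled to the same median and the limit at 100 there were 12, Egr1, Fos and Junb among them.

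Across the 10 libraries the log2 signals of the members resembled each other, with Pearson's r from 0.692 (Egr1 and Egr3) to 0.934 (Fos and Junb). These points are 2 antibodies at 5 stages, so the difference between antibodies is part of each r. Of the 963 loci near or in a protein-coding gene, the 5 most like the mean profile of the members were in Csgalnact1 (r = 0.777), near Map3k14 (0.76), in Mpdu1 (0.752), near A530032D15Rik (0.735) and in Mroh2a (0.724). Map3k14 encodes a kinase of the non-canonical NF-kappaB pathway. The locus 44 bp from Map3k14 had Elk1 signals of 27.5, 164.7, 81.2, 52.2 and 99.3 and Gli2 signals of 23.9, 7.5, 12.8, 0 and 24.8, in the order of stages above. Those of the members themselves, which make up the mean, ran from 0.865 at Egr1 to 0.978 at Fos. A locus with no protein-coding gene within 50 kb was closer than the 5 loci above, though not than Egr3, Fos or Junb, at r = 0.91. This locus lay on chromosome 12 between 115372125 and 115372505 within the immunoglobulin heavy chain region. It had Elk1 signals of 96.2, 271.3, 162.5, 97.7 and 67.3, and its day 0 signal was thus higher than that of any member.

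Other genes of the same pathways were looked up in the table, in which 3.19% of all protein-coding genes had a locus. Of 15 annotated AP-1 family genes 3 did, and of 6 annotated EGR family genes and cofactors 2 did, Fosb being the 1 gene besides the members. The members are in these counts and were chosen as listed loci, so nothing is read from the 2 shares. The Fosb locus, 1091 bp from that AP-1 gene, had Elk1 signals of 3.4, 29.1, 18.7, 1.8 and 4.1. Its Gli2 signals were 341.6, 105.3, 129.2, 298.4 and 207.3, the reverse of the members in which antibody was high. Of 52 other immediate-early and serum response factor target genes 1 had a locus, the clock gene Per1, with 2 loci that overlapped tRNA genes. They reached 100 with Gli2 only. The locus nearer the gene had 111.1 at day 0, and the farther had 203.1 there, 217.5 in ciNSLCs and 106.9 in pri-NPC. Their Elk1 signals were 0 to 23.8. Of 20 genes of ERK feedback 2 had a locus, Spry4 and Dusp8, and of these Dusp8 was called higher with Elk1 in pri-NPC, 10.3 at day 0 and 101.6 there. It lay 4278 bp from the gene of a MAP kinase phosphatase and was listed through that library alone. Of 24 Hedgehog pathway genes 1 had a locus, Smo, which encodes the Hedgehog signal transducer Smoothened. Its Elk1 signal was 26 at day 0 and 108.3 at day 4, called higher (interval of the ratio 1.42 to 11.1) as were 17.6% of all loci. The later Elk1 signals at Smo were 38.2, 4.6 and 0, none called different from day 0, and its Gli2 signals were 123, 29.6, 3.7, 0 and 14.3.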

How the data were processed

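The values are the signal of 10 libraries at 1577 loci, deposited by the authors as 1 table, never negative and in a unit that is not stated. Build mm10 and the tools Bowtie2, SAMtools, FastQC and CASAVA 1.8.4 are named, per the submitters' processing notes, without role or order. How peaks were called and signals scaled is not given in the sources used here, and total depth is unknown. Every column matched the title of 1 sample. The members and gene lists were chosen with earlier results of these data known.

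A step per library and a background step shared by both antibodies of a stage were fitted to signals below 60, which placed 77.8 to 95.1% of them within 0.06 of a whole number of steps minus 0 to 2 background steps. This reading is an inference from the values. The step fit was tested on simulated data. Signal divided by step, rounded, gave counted units, and ratios got 95% exact conditional binomial intervals. These ignore background subtraction, PCR copies and the listing of loci. Log2 differences used the signal plus 1 (the pseudocount), so differences of low signals are understated. With 1 library per group no test between conditions was possible, and a call compares 2 libraries.

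The nearest protein-coding gene of RefSeq GRCm38.p6, up to 50 kb away, was given to each locus. The genes named were the members, list genes with a locus and the 5 loci most like the members. Whether the table counts positions from 0 or 1 is not stated. Alternatives were scaling to the same median or 90th percentile, pseudocounts of 0.1 and 5, a 3-fold limit, only loci at 100 in a library outside the pair, leaving out loci with both signals under the 25th percentile of 6.9, and another correlation. Units before background subtraction, taking the smallest background count that accounts for a signal, other limits than 100 and the comparison of ciNSLCs with day 8 were added after seeing the data. The software was pandas 2.3.3, scipy 1.17.1, matplotlib 3.10.9 and numpy 2.4.6 under Python 3.11.15.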

Additional observations from a re-analysis of the deposited data

How the results depend on the processing

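No paired analysis was possible because each group had 1 library and the labels carry no replicate numbers; leaving out a replicate was not possible for the same reason. Of 128 counts of members called, over 16 comparisons, 109 stayed within 1.5 times the reported count. The 109 include settings that could not change the call of a locus. Leaving out loci with both signals under 6.9 removed no member in any comparison. Keeping only loci at 100 in a library outside the pair dropped Egr3 from pairs with Elk1 day 4 and no other member. Each count took calls only in the direction named for its comparison, so calls the other way under a setting went uncounted. Elk1 ciNSLCs against pri-NPC stayed at 0 under the 2 scalings, though the log2 differences of all 4 members changed sign. The 109 therefore overstate how stable the calls were, and most counts that moved did so under the 2 scalings. Scaling to the same median left 0 called for Elk1 pri-NPC against day 0, Elk1 day 8 against day 4, and Gli2 against day 0 for day 8, ciNSLCs and pri-NPC. Scaling to the 90th percentile left 0 for these and for Elk1 ciNSLCs against day 8, left 1 for Elk1 day 4 against day 0, and gave 2 for Elk1 above Gli2 at day 0. It also turned the log2 differences of all 4 members between days 8 and 4 positive, that of Junb from -1.01 to 0.61. A pseudocount of 5 or a 3-fold limit left 0 for Elk1 day 8 against day 4. Units before background subtraction left 0 for Elk1 day 8 against day 4, Elk1 ciNSLCs against day 8 and Gli2 pri-NPC against day 0, and gave 1 (Fos) for Elk1 ciNSLCs against pri-NPC. The loci at the limit with Elk1 alone in 3 or more stages numbered 6 at a limit of 80, 1 at 150 and 12 with median scaling. Of the 5 loci most like the members, 3 were shared under Spearman correlation and 3 under median scaling. The cause of these shifts was not tested. Gli2 at the 4 loci and Elk1 at Egr3 rest on few units, so their intervals are wide.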
